A study of Mus musculus with 4 samples.

Results

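Neuroblast-like (NB-like) tumor cells are cells of murine high-grade gliomas that carry the tumor transgene together with RNA of young neurons. A cell counted as NB-like when it held fewer than 25% mitochondrial UMIs (unique molecular identifiers, one per captured mRNA molecule), between 2000 and 40000 UMIs in all, at least 2 UMIs of firefly luciferase (FLUC) plus human MYCN, and RNA of at least 3 of the 7 neuronal genes Stmn2, Neurod1, Stmn3, Ina, Tubb3, Elavl2 and Gap43. It could hold RNA of at most 1 of the oligodendroglial genes Sox10, Olig1 and Olig2 and of at most 1 of the myelin genes Mog, Mal and Ermn. The members were thus selected on their own UMI counts of these reporter, neuronal, oligodendroglial and myelin genes. They numbered 570, among 7772 cells within the filters and 11834 barcodes. The tumors grew in the brains of hGFAP-cre::TP53Fl/Fl::lsl-MYCN mice, and all 4 mice described here shared this genotype, so that no group without the transgene or with intact Trp53 was available. Mice 4 and 5 were sampled at 43 days of age (P43), mice 6 and 7 at 70 days (P70). Each mouse was 1 tumor and 1 library, and libraries of older mice were not analysed here. The hGFAP promoter drives the Cre recombinase in neural precursor cells and their progeny, including neurons and glia, where it deletes Trp53 and switches on human MYCN and FLUC in the Rosa26 locus, so the reporter marks recombined cells rather than malignant cells as such.

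Neuroblasts are the immature, migrating neurons of the ventricular-subventricular zone and olfactory bulb. In the adult they arise from stem cells by way of transit amplifying cells, and most express Dlx transcription factors and become inhibitory interneurons. A smaller glutamatergic lineage passes through proneural factors of the Neurog and Neurod families. Stathmins such as Stmn2 and Stmn3 bind tubulin in growing neurites, Tubb3 encodes neuronal beta-tubulin, Ina encodes the neurofilament protein alpha-internexin, Elavl2 encodes a neuronal RNA-binding protein, and Gap43 is a growth cone protein.

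Depth differed between the libraries. The deposited UMI counts summed to 15044263 in mouse 4 (3430 barcodes), 13106786 in mouse 5 (1739 barcodes), 18698291 in mouse 6 (2972 barcodes) and 40621958 in mouse 7 (3693 barcodes). Any pair of libraries shared between 1 and 3 cell barcodes. CPM below are UMIs of a gene per 1000000 UMIs summed over a class of cells. In reporter-free cells the sum of 4 genes of the Y chromosome (Kdm5d, Uty, Ddx3y and Eif2s3y) was 209 CPM in mouse 4, which is labelled female, and 0.442 CPM in mouse 5, which is labelled male. These values go against both P43 labels, so which animal gave which of these libraries is uncertain. The sum was 178 CPM in mouse 6 and 0 in mouse 7, labelled male and female. The NB-like cells followed their own library, with 4 UMIs of these genes in mouse 4, 10 UMIs in mouse 6 and none in mouse 5 and mouse 7. The sexes at P43 were used for no comparison.

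NB-like cells were few in 3 of the 4 mice. Mice 4, 5, 6 and 7 had 2, 2, 20 and 546 of them. Among reporter cells, those with at least 2 reporter UMIs, they made up 0.381% of 525 cells in mouse 4 (95% exact Clopper-Pearson interval 0.0462 to 1.37%), 0.820% of 244 cells in mouse 5 (0.0994 to 2.93%), 4.80% of 417 cells in mouse 6 (2.95 to 7.31%) and 19.7% of 2771 cells in mouse 7 (18.2 to 21.2%). The intervals cover counting error only. Both P70 mice lay above both P43 mice, and the P70 mice differed from each other by more than mouse 6 differed from the P43 mice. The mean was 0.600% ± 0.310 at P43 and 12.3% ± 10.5 at P70 (SD, n = 2 mice each), a difference of 11.6 percentage points (exact two-sided permutation test, p = 0.333, the smallest p that 2 against 2 mice allow). Without mouse 7 the difference was 4.20 points and without mouse 6 it was 19.1 points. With 1 library per mouse, library and age effects cannot be told apart here.

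**Figure D1:**
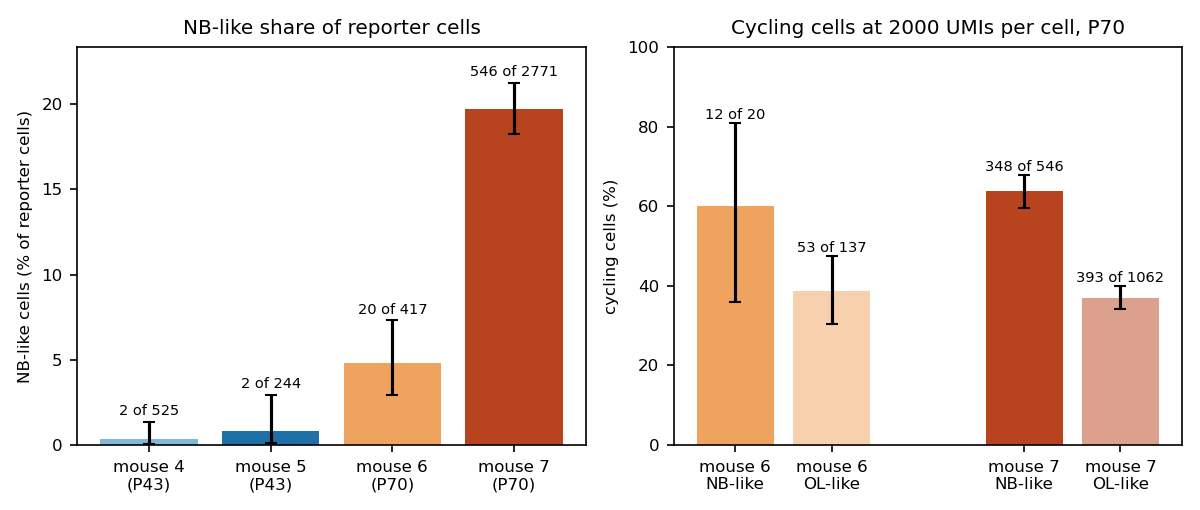
Left, NB-like cells as a percentage of reporter cells in each of the 4 mice, with 95% exact binomial intervals, rising from 2 of 525 cells in mouse 4 to 546 of 2771 in mouse 7. Right, the percentage of NB-like and of OL-like cells called cycling in the P70 mice after each cell was thinned to 2000 UMIs, with the NB-like bar above the OL-like bar in both mice.

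Because the limits ask for a number of detected genes, deeper cells could meet them more easily. The median NB-like cell of mice 4, 5, 6 and 7 held 9396.5, 11952, 5567.5 and 14489.5 UMIs, and the median reporter cell 7472, 22443.5, 7111 and 12258 UMIs. With every cell thinned to 2000 UMIs before the limits were applied, the numbers were 0 of 289, 0 of 177, 14 of 337 (4.15%) and 410 of 2033 (20.2%) reporter cells of mice 4 to 7. Both P70 mice thus lay above both P43 mice at this depth too, while the P43 mice, both at 0, had no order. As a background for the reporter, cells with at least 3 myeloid markers reached 2 reporter UMIs in 0 of 44, 0 of 98, 9 of 913 (0.986%) and 1 of 93 cells (1.08%) of mice 4 to 7, and a FLUC UMI was found in 0%, 10.2%, 5.81% and 9.68% of them. Around the limit of 3 neuronal genes the cells differed between mice. In mouse 6, 8 of the 20 members had exactly 3 of the neuronal genes. Their median depth was 3498 UMIs, and they held 898 CPM of Sox11, a transcription factor of immature neurons, beside 1288 CPM of Mbp, which encodes myelin basic protein. The 15 reporter cells of mouse 6 just outside, with exactly 2 of these genes, held 7.78 CPM of Sox11 and 669 CPM of Mbp, and the 6 members with all 7 genes held 1236 and 59.2 CPM. In mouse 7 only 12 members had exactly 3 genes (225 CPM of Sox11 and 719 CPM of Mbp), 64 cells outside had exactly 2 (177 and 868 CPM), and 434 of 546 members had all 7 (993 and 60.5 CPM). Members at the lower edge therefore held more Mbp RNA than those with all 7 genes in both mice, and with at least 4 neuronal genes 12 cells remained in mouse 6 and 534 in mouse 7. At the reporter limit, the 14 members of mouse 7 with exactly 2 reporter UMIs held 534 CPM of Sox11 and the 20 cells with 1 reporter UMI held 296 CPM.

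The neuronal genes named above chose the cells, so their levels are a description. Stmn2 (chr3:8509360-8561606 of GRCm38) stood at 851, 1130, 779 and 1074 CPM in the members from mice 4, 5, 6 and 7, and Stmn3 at 266, 544, 363 and 402 CPM. For comparison serve the OL-like cells, here the reporter cells within the same filters that held RNA of at least 2 of Sox10, Olig1 and Olig2 and of at most 1 of the neuronal genes (204, 95, 137 and 1062 cells of mice 4 to 7). In OL-like cells Stmn2 had no UMI in mice 4, 5 and 6 and stood at 0.821 CPM in mouse 7. Neurod1 (chr2:79452521-79456751), a basic helix-loop-helix (bHLH) factor that drives neuronal differentiation, was not even over the ages. It reached 681 and 649 CPM at P70. In mouse 4 it stood at 106 CPM, from 2 UMIs of a single cell, and in mouse 5 it was without a UMI (a 0 allows up to 126 CPM there). At 2000 UMIs per cell, a Neurod1 UMI was found in 60% of members of mouse 6 and 70.1% of mouse 7. Cells with myeloid markers, which should lack it, had one in 0.329% (mouse 6, median depth 5627 UMIs) and 0% (mouse 7, 2836 UMIs, 93 cells). The gate genes per member averaged 4, 5, 4.85 and 6.65 of 7 in mice 4 to 7 at full depth.

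Other genes of young neurons, which the limits did not use, were high in the P70 members too. Genes with the pattern most like that of the members, by the ratio of their level in NB-like to OL-like cells of mouse 7 among the 238 genes that also exceeded 10-fold in mouse 6, were Neurod1, Stmn2, Stmn3, Calb2, Uncx, Gap43, Nhlh2, Srrm4, Lhx1 and Igfbpl1. Of these, 4 are gate genes. Calb2 (chr8:110137502-110168210), which encodes the calcium-binding protein calretinin of immature and mature interneurons and granule cells, stood at 353 and 229 CPM in the P70 members (mouse 6 first) and at 1.34 and 0.597 CPM in OL-like cells. At 2000 UMIs per cell it was found in 30% and 33.2% of members, against 0.219% and 1.08% of myeloid-marker cells. Uncx, a homeobox factor, reached 235 and 112 CPM against 0 and 0.298 CPM, and Nhlh2, a bHLH factor of postmitotic neurons, 127 and 186 CPM against 0 and 0.597 CPM. Against the OL-like cells of mouse 6, where neither had a UMI, this is at least 117-fold higher for Uncx and at least 63.3-fold higher for Nhlh2, taking 3 counts in that class as the floor. None of Calb2, Uncx and Nhlh2 had a UMI in the P43 members, which allows up to 160 CPM in mouse 4 and 126 CPM in mouse 5, so levels like those of Nhlh2 or Uncx in mouse 7 were at the edge of what those 2 cells per mouse could show.

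Proneural bHLH factors bind E-box motifs, and promoters of genes with this pattern are printed here to show where such letters lie. The sequences are from RefSeq (GRCm38.p6) and run from 250 bases before to 50 bases after the annotated start, 5′ to 3′ on the strand of the gene, with the letters CAGATG or CAGCTG, searched on both strands, in capitals. They are the gate genes Neurod1 (chr2:79456587-79456886, minus strand) and Stmn3 (chr2:181314451-181314750, minus strand), Nhlh2 (chr3:102009895-102010194, plus strand) and Srrm4 (chr5:116591768-116592067, minus strand).
Neurod1: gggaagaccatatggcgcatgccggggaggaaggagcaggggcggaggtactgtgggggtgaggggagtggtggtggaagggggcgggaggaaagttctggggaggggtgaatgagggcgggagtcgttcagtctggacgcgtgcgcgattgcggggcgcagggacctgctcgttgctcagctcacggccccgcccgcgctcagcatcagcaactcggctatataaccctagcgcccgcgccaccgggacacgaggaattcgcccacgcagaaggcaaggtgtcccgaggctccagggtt
Stmn3: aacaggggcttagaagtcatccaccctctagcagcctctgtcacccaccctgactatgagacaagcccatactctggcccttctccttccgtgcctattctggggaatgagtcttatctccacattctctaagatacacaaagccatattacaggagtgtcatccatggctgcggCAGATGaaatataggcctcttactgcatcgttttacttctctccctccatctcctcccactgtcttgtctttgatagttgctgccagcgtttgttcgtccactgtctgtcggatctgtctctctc
Nhlh2: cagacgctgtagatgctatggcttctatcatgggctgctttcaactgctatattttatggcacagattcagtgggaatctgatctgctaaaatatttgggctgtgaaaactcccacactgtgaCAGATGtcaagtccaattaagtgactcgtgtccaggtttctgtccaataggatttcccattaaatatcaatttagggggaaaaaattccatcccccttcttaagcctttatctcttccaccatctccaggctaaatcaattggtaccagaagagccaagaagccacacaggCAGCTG
Srrm4: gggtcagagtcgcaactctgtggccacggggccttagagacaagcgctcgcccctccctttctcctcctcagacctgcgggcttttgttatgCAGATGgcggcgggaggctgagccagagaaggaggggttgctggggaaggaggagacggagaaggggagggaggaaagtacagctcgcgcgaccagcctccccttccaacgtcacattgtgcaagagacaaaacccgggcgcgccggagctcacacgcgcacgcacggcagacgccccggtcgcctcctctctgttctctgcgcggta
With the annotated start counted as 0, the Stmn3 window held CAGATG at position -75, Srrm4 held it at -158, and Nhlh2 held it at -127 and CAGCTG at 44. The Neurod1 window held neither motif. On either strand, CAGATG was present in 19.2% and CAGCTG, its own reverse complement, in 18.3% of 27025 promoters of the same length. Of 5 gate genes with a promoter entry, 1 held CAGATG and 2 held CAGCTG (Ina and Elavl2). Among 17 factors of the excitatory list, 4 held CAGATG (Neurod2, Nhlh1, Nhlh2 and Lhx2) and 4 held CAGCTG, and among 19 neuroblast and neurite genes 5 held CAGATG and 7 held CAGCTG. A match of letters is not a binding site.

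Of the factors of the excitatory neuronal lineage, the P70 members expressed some and had few or no UMIs of others. Neurod6 stood at 68.6 (mouse 6) and 86.9 CPM (mouse 7), Bhlhe22 at 127 and 142 CPM, Insm1, a zinc finger factor of neuronal progenitors, at 201 and 255 CPM, and Zic1 at 49.0 and 63.7 CPM. The OL-like counterparts had 0 and 0.672 CPM of Neurod6, 1.34 and 4.63 CPM of Bhlhe22, 10.1 and 7.54 CPM of Insm1 and 9.39 and 10.7 CPM of Zic1. The P70 classes did not overlap for any of these genes, but NB-like cells lay above OL-like cells without overlap for 2890 of 11285 genes tested. Several other factors of the list had few or no UMIs in the members. Eomes reached 0.359 CPM in mouse 7 alone, Tbr1 9.80 and 0.120 CPM, and Neurog1, Atoh1, Barhl1, Barhl2 and Tbx21 had no UMI in NB-like cells of any of the 4 mice. Neurog2, a proneural factor, stood at 4.90 and 8.26 CPM in NB-like and at 10.1 and 0.522 CPM in OL-like cells, so its direction differed between the mice (log2 fold change 2.37, adjusted p = 0.018, edgeR). Neurod2 did not separate the classes, with 58.8 and 45.0 CPM in NB-like and 17.4 and 48.3 CPM in OL-like cells. Further regulators outside the lists were Ebf1 (255 and 162 CPM, against 0.671 and 1.34 CPM in OL-like cells) and Lhx1 (44.1 and 67.6 CPM, against 0 and 0.224 CPM).

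Several genes of the inhibitory lineage were found mainly in the P43 members. Dlx1 (chr2:71528113-71533981), a homeobox factor of inhibitory interneuron precursors, was at 266 CPM in mouse 4 (5 UMIs, 95% exact Poisson interval 86.4 to 621 CPM) and 502 CPM in mouse 5 (12 UMIs, 259 to 877 CPM). Mouse 6 gave 0 UMIs (up to 14.7 CPM) and mouse 7 a single one (0.120 CPM). Dlx2 stood at 106, 335, 0 and 0.359 CPM in mice 4 to 7. Gad2, which makes the inhibitory transmitter GABA, stood at 266 and 83.7 CPM at P43 and had no UMI at P70, and Gad1 stood at 53.2, 167, 0 and 0.120 CPM. Sp9, a factor of the same lineage, had 1 and 4 UMIs in the P43 mice (53.2 and 167 CPM) and none at P70. Meis2, a homeobox factor of olfactory bulb interneurons, was at 1224 and 1464 CPM at P43 and at 58.8 and 37.6 CPM at P70, where OL-like cells held 33.6 and 20.9 CPM. Dlx5 and Dlx6 stood apart from these genes in mouse 7, at 32.6 and 27.3 CPM in members, with Dlx5 in 28.2% of them, while none of the 20 members of mouse 6 held either (up to 14.7 CPM). OL-like cells of mouse 7 held 24.2 CPM of Dlx6 but 0.821 CPM of Dlx5, which was found in 1.04% of them.

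The P43 values rest on 4 cells that differed from each other. In mouse 4, 1 cell with 5596 UMIs and 2 reporter UMIs held 5 Dlx1, 5 Gad2 and 22 Meis2 UMIs, and the other, with 13197 UMIs and 9 reporter UMIs, held 2 Neurod1 UMIs and none of Dlx1, Dlx2, Gad1 and Gad2. In mouse 5, 1 cell with 10432 UMIs and 6 reporter UMIs held 11 Dlx1 and 35 Meis2 UMIs, while the other, with 13472 UMIs and 3 reporter UMIs, held 1 UMI each of Dlx1, Dlx2, Gad1 and Gad2 and expressed 6 of 8 cell cycle genes. The cell with Neurod1 also held 1 Meis2 UMI. As a background at full depth, Dlx1 was found in 1.47% and 22.1% and Dlx2 in 3.43% and 25.3% of OL-like cells of mice 4 and 5, so the single UMIs of these genes in the last cell are not above what other cells of mouse 5 held, while Gad1 and Gad2 were found in no OL-like cell of mouse 5. The same mice held 2 reporter-free cells each that passed the neuronal gate, of which 1 in mouse 4 and both in mouse 5 expressed inhibitory genes alone. For this count 6 excitatory genes outside the gate (Neurod2, Neurod6, Nhlh1, Nhlh2, Bhlhe22 and Uncx) and 6 inhibitory genes (Dlx1, Dlx2, Dlx5, Gad1, Gad2 and Sp9) were looked up in each cell at full depth, where a single UMI was enough. Of the P43 members, the cell with Neurod1 in mouse 4 expressed excitatory genes alone, at least 2 of them. The other member of mouse 4 and both members of mouse 5 expressed inhibitory genes alone. At P70, 15 of 20 members of mouse 6 expressed excitatory genes alone, 5 neither and none an inhibitory gene. In mouse 7, 364 of 546 members expressed excitatory genes alone, 159 both, 23 neither and none inhibitory genes alone. At least 2 of the 6 excitatory genes were found in 55% and 87.7% of the members of mice 6 and 7, against 0.730% and 2.45% of OL-like cells. At least 2 of the 6 inhibitory genes were found in none of these members, against 2.19% and 0.188% of OL-like cells. The whole inhibitory list of 13 genes also holds Dlx6, Meis2 and Tshz1. At least 2 of its genes were found in 25% and 39.4% of members and in 24.1% and 36.9% of OL-like cells. The whole excitatory list was not counted per cell. In cells with myeloid markers of these mice, an excitatory gene was found in 1.31% and 1.08% and an inhibitory gene in 0.219% and 0%, at median depths of 5627 and 2836 UMIs. OL-like cells of mice 6 and 7 held an excitatory gene in 6.57% and 21.7% and an inhibitory gene in 15.3% and 2.17%. Their median depths were 7217 and 11713.5 UMIs. No test between ages was made, since with 2 members in each P43 mouse the planned fit could not be run.

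**Figure D2:**
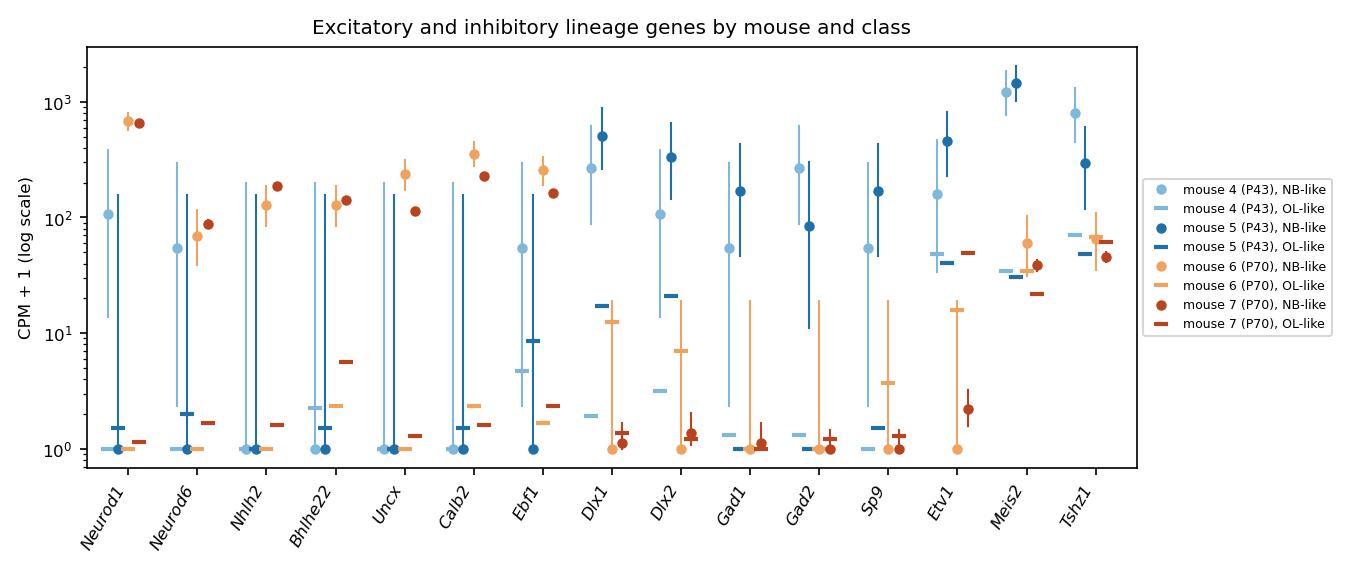
Level (CPM + 1, log scale) of excitatory and inhibitory lineage genes in NB-like cells (points with 95% exact Poisson intervals) and OL-like cells (dashes) of the 4 mice. Neurod1, Nhlh2, Calb2 and Uncx are high in the NB-like cells of mice 6 and 7, and Dlx1, Gad2 and Meis2 in those of mice 4 and 5, where 2 cells per mouse leave wide intervals.

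Of 29 genes of neuroblasts and neurites beyond the gate, 27, 26, 28 and 29 had a UMI in the members of mice 4, 5, 6 and 7. A single UMI was enough, and the members held 18793 UMIs in all in mouse 4 and 8353059 in mouse 7, so this count depends on depth. In mouse 4 only 14 and in mouse 5 only 18 of the 29 genes had at least 5 UMIs. Sox11 (chr12:27334264-27342574) stood at 1171, 1046, 1108 and 944 CPM in members from mice 4, 5, 6 and 7 and between 22.1 and 81.6 CPM in OL-like cells. Igfbpl1, a secreted factor of migrating neuroblasts, reached 639, 669, 299 and 254 CPM against at most 0.895 CPM, and the splicing regulator Celf4 266, 460, 343 and 324 CPM against at most 7.61 CPM. Dcx, a microtubule protein of migrating neurons, was at 426 and 628 CPM at P43 (8 and 15 UMIs) and at 142 and 110 CPM at P70. The imprinted gene Nnat was at 745 and 1130 CPM at P43 and at 142 and 105 CPM at P70. The exact Poisson intervals of Dcx did not overlap between mouse 5 (351 to 1035 CPM) and mouse 6 (95.2 to 204 CPM), while that of mouse 4 (184 to 839 CPM) did. All 15 Dcx UMIs of mouse 5 came from 1 of its 2 members. Srrm4, which directs neuron-specific splicing, was at 251, 157 and 139 CPM in mice 5, 6 and 7 without a UMI in mouse 4, and Myt1l, a zinc finger factor of neurons, at 106, 167, 113 and 209 CPM.

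RNA of more mature neurons was present in the P70 members in part. Rbfox3, which encodes the neuronal antigen NeuN, stood at 162 and 95.9 CPM, mouse 6 first (0.671 and 1.79 CPM in OL-like cells), Snap25, a protein of transmitter release, at 78.4 and 72.1 CPM (0 and 0.895 CPM), and Reln, a secreted matrix protein of early neurons, at 49.0 and 43.6 CPM (0 and 0.895 CPM). The glutamate receptor genes Grin2b and Gria2 were at 216 and 412 CPM in mouse 6 and lower in mouse 7, at 76.7 and 82.2 CPM. The vesicular glutamate transporters were sparse. Slc17a7 reached 14.7 and 5.15 CPM, and Slc17a6 had 4.90 CPM in mouse 6, with a limit of 0.359 CPM from 0 UMIs in mouse 7. Th of dopaminergic neurons had 0.120 CPM and Camk2a 0.359 CPM in mouse 7 and were at 0 in mouse 6.

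Across all genes, UMI counts summed per class were compared between NB-like and OL-like cells of mice 6 and 7 with edgeR's quasi-likelihood test, the mouse as a block and Benjamini-Hochberg adjustment. Of 11285 genes tested, 1376 were higher in NB-like cells (12.2% of those tested) and 1615 were lower (14.3%), with a median log2 fold change of -0.04. With 2 mice there was 1 residual degree of freedom, so the p-values rest on the spread shared across genes, and with DESeq2 618 genes were higher and 682 lower. As the classes were cut on neuronal and oligodendroglial genes, the counts for these lineages are given beside that background and nothing is read from them. They were 8 higher and 1 lower (Zic2) of 11 tested excitatory factors (20 listed), 26 higher of 28 tested neuroblast and neurite genes (29 listed), 14 higher of 16 tested mature neuron and synapse genes (24 listed), and 17 lower of 17 tested oligodendroglial genes outside the gate (19 listed). Of 4 tested inhibitory lineage genes (13 listed), 1 was higher (Meis2) and 1 lower (Etv1). Under DESeq2, 7 of the excitatory factors were higher and none lower, and of the inhibitory genes none was higher and 1 lower. By the rule for named genes, the 10 largest excesses outside the lists included those of Srrm4, Lhx1, Scrt1, Sncb, Frmd3, Myt1l, Prdm8, Irs4 and Clmp, with log2 fold changes from 8.45 for Srrm4 to 7.16 for Clmp. The 10 largest deficits were those of Car2, Itih3, Dct, Plxnb3, Plaat3, Nkx6-2, Rest, Tmem88b, Padi2 and Nrtn, from -6.65 for Car2 to -5.92 for Nrtn.

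Among the genes lower in NB-like cells, Rest encodes the repressor that keeps neuronal genes silent in other cells. It stood at 62.0, 45.6, 55.0 and 65.1 CPM in OL-like cells of mice 4 to 7, and at 0.838 CPM in members of mouse 7. The members of mice 4, 5 and 6 were without a Rest UMI, so that up to 160, 126 and 14.7 CPM were possible. At full depth a Rest UMI was found in 36.5% and 50% of OL-like cells and in 0% and 1.28% of NB-like cells of mice 6 and 7. Srrm4, which is known to act on the Rest transcript, showed the opposite distribution, with no UMI in OL-like cells of mice 4, 5 and 6 and 0.448 CPM in mouse 7.

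Genes of stem cells and transit amplifying cells were low in the P70 members. Sox2, a factor of neural stem cells, stood at 9.80 and 3.47 CPM in those from mice 6 and 7 and at 62.4 and 102 CPM in OL-like cells, and a UMI was found in 5% and 2.56% against 34.3% and 57.9% of cells at full depth. Notch1 and its targets Hes5 and Hes1 had no UMI in the members of mouse 6 and stood at 3.23, 5.51 and 1.56 CPM in mouse 7, against 73.3, 104 and 24.5 CPM in its OL-like cells. Fabp7 stood at 24.5 and 11.9 CPM against 170 and 197 CPM. The P43 members were different in Sox2, which had 4 and 5 UMIs in them (213 and 209 CPM), while their OL-like cells stood at 110 and 113 CPM. Of 12 tested genes of this list (14 listed), 9 were lower in NB-like cells, beside 14.3% of all genes, and 2 were higher, beside 12.2%, Btg2, an antiproliferative gene of neurogenic precursors (log2 fold change 0.91), and Prom1 (4.15), and under DESeq2 8 were lower and none higher. Of 6 tested astrocyte genes (10 listed), 1 was higher and 4 were lower. Slc1a2, a glutamate transporter, was higher in NB-like cells, at 19.6 and 46.6 CPM against 0.671 and 1.27 CPM. Apoe, which carries lipids, stood at 103 and 17.8 CPM against 164 and 113 CPM and S100b at 9.80 and 2.99 against 239 and 60.9 CPM, and both fell, as did Aldoc and Gja1. Slc1a3, a second glutamate transporter, did not pass the test (14.7 and 24.7 against 28.9 and 27.6 CPM). Gfap and Aqp4 were near 0 in the members of mouse 7 (0.718 and 0.239 CPM) and also in its OL-like cells (1.64 and 0.298 CPM).

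**Figure D3:**
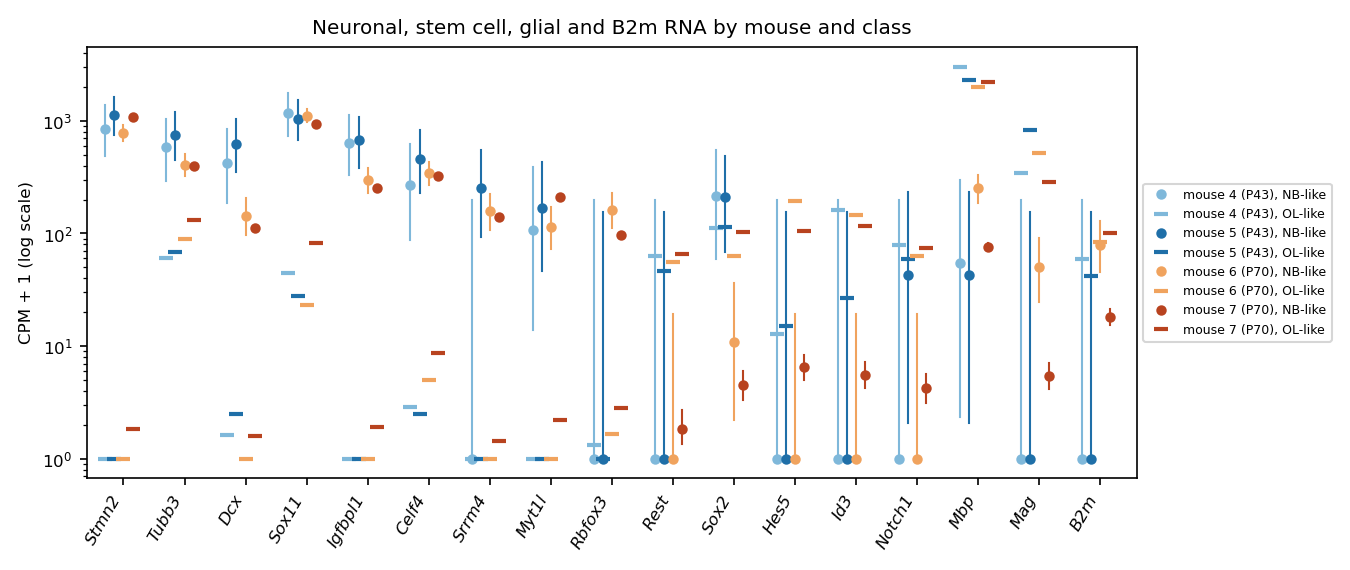
Level (CPM + 1, log scale) of neuronal, stem cell and glial genes and B2m in NB-like cells (points with 95% exact Poisson intervals) and OL-like cells (dashes) of the 4 mice. Sox11 lies near 1000 CPM in the NB-like cells of all 4 mice, Rest and Notch1 lie above the NB-like points in OL-like cells of mice 6 and 7, and Mbp in NB-like cells is higher in mouse 6 (250 CPM) than in mouse 7 (75.5 CPM).

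RNA of other cell types was present in the members to an unequal degree, and its part in the results was not tested. Of 19 oligodendroglial genes outside the gate, 12 had a UMI in the members of mouse 6 and 19 in those of mouse 7, and they summed to 1240 and 232 CPM against 11290 and 10605 CPM in OL-like cells. Mbp, the most abundant of them in mouse 7, stood at 250 and 75.5 CPM in the members of mice 6 and 7. The 6 myeloid markers summed to 172 CPM in mouse 6 (4 of 6 with a UMI, 35 UMIs, led by Tyrobp), against 105 CPM in OL-like cells, with Csf1r and Cx3cr1 at 0. In mouse 7 they summed to 5.75 CPM. In mouse 6, 2 of the 20 members carried at least 3 myeloid markers, and in mouse 7, 2 members carried at least 3 mural markers. Endothelial, mural, lymphoid, neutrophil and ependymal markers summed to 29.4, 0, 4.90, 14.7 and 0 CPM in mouse 6 and to 1.56, 9.82, 0.479, 0.239 and 0.359 CPM in mouse 7. In the 2 members of mouse 4 Flt1 had the only UMI of these lists, and in those of mouse 5 Rgs5 and Vtn had 1 each. Cells with several gate genes of both lineages were kept out by the limits. They numbered 40, 36, 37 and 246 reporter cells in mice 4 to 7 that had at least 3 neuronal and at least 2 of the genes Sox10, Olig1 and Olig2, with median depths of 29760, 26074, 32397 and 17819 UMIs, above those of members.

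The limits used no cell cycle gene, and a larger share of NB-like than of OL-like cells was cycling in both P70 mice. With each cell thinned to 2000 UMIs, a cell was called cycling when it expressed at least 2 of 8 genes of proliferation (Birc5, Ccnb1, Cdk1, Cenpf, Mki67, Top2a, Tpx2 and Ube2c). This held for 12 of 20 NB-like cells of mouse 6 (60%, 95% exact interval 36.1 to 80.9%) and 348 of 546 of mouse 7 (63.7%, 59.5 to 67.8%). In OL-like cells it held for 53 of 137 (38.7%, 30.5 to 47.4%) and 393 of 1062 (37.0%, 34.1 to 40.0%). The difference was 21.3 points in mouse 6, where the intervals overlapped, and 26.7 points in mouse 7, where they did not, with a mean of 24.0 ± 3.83 points (SD, n = 2 mice; exact two-sided sign-flip permutation test, p = 0.5, the smallest p that 2 mice allow). At full depth the shares were 95% and 86.6% in NB-like and 53.3% and 60.3% in OL-like cells. A single gene of the call need not follow it. At 2000 UMIs Top2a was found in 25% of NB-like and 26.3% of OL-like cells of mouse 6, and in 48.7% and 30.2% of mouse 7, with 3.51% and 3.23% in myeloid-marker cells. Of the P43 members, 0 of 2 and 1 of 2 were cycling.

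Genes of S phase were higher in NB-like cells as well. In edgeR's test with Benjamini-Hochberg adjustment, 12 of 16 S phase genes rose and none fell, beside 12.2% and 14.3% of all genes (median log2 fold change 0.93, against -0.04 over all genes). Of 16 genes of G2 and mitosis 4 rose (Mki67, Cdk1, Ccna2 and Ube2c) and none fell (median 0.57). With cells thinned to 2000 UMIs before the limits were applied, 10 and 2 genes of these lists rose, and the log2 fold change of Mki67 turned from 0.64 to -0.037. Dut (chr2:125247190-125258608), which keeps uracil out of DNA, stood at 603 and 810 CPM in P70 members and at 219 and 236 CPM in OL-like cells (log2 fold change 1.63 ± 0.25 SE, adjusted p = 7.1e-10, edgeR). Ung, the uracil glycosylase that acts on the same lesion, stood at 53.9 and 52.2 against 16.8 and 17.8 CPM (1.60 ± 0.35), and Rrm2, a subunit of the reductase that makes deoxynucleotides, at 123 and 148 against 37.6 and 57.9 CPM (1.48 ± 0.28). Ube2c, which marks mitotic proteins for degradation, stood at 387 and 537 against 122 and 205 CPM (1.50 ± 0.24). For these 4 genes every NB-like value of the P70 mice lay above every OL-like value, as it did for 2890 of the 11285 genes tested. Cdk1, the mitotic kinase, was called on mouse 7 (138 against 60 CPM), while in mouse 6 it was slightly lower in NB-like cells (63.7 against 71.1 CPM). Aurka, Aurkb, Plk1 and Hmmr did not pass the test, and in mouse 6 each of them was lower in NB-like than in OL-like cells (34.3 against 55.0 CPM for Hmmr). DESeq2 and the fit without the mouse block each called 4 of the S phase genes and 1 of the G2 and mitosis genes. In cells not called cycling, with mouse 6 at 8 members, 5 of the S phase genes and 3 of 15 tested G2 and mitosis genes were higher.

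**Figure D4:**
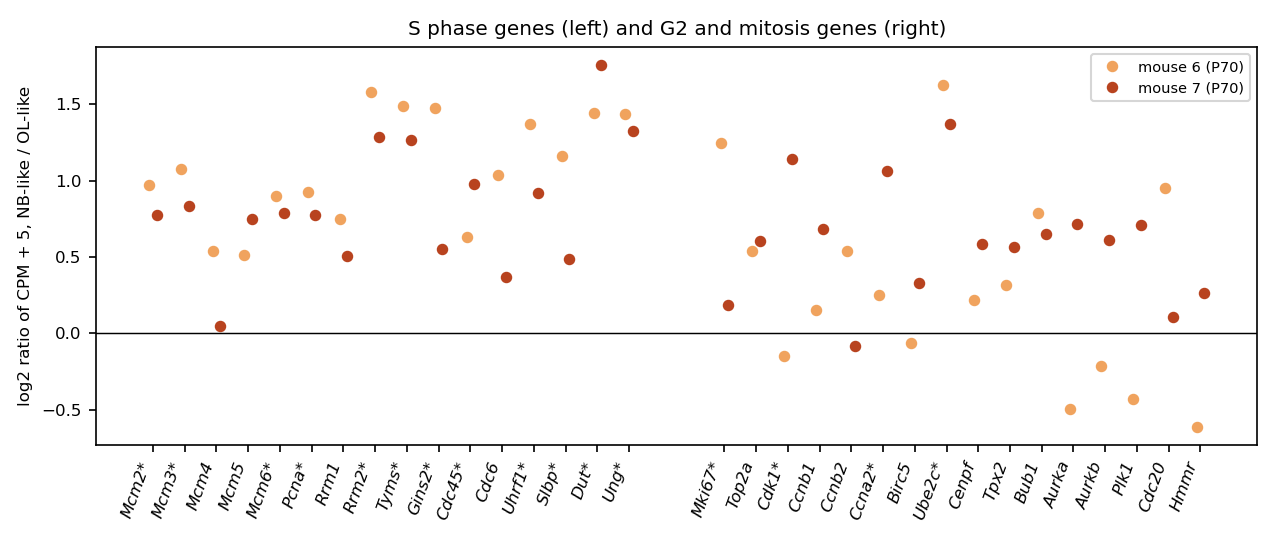
Log2 ratio of NB-like to OL-like levels (CPM + 5) for 16 S phase genes and 16 G2 and mitosis genes in mice 6 and 7, with genes called by edgeR marked by an asterisk. All S phase points lie above 0 in both mice, whereas Cdk1, Birc5, Aurka, Aurkb, Plk1 and Hmmr lie below 0 in mouse 6.

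Neuroblast genes were mostly lower in cycling than in other NB-like cells of mouse 7. Stmn2 and Neurod1 belong to the gate that every member passed, and their levels are a description. Since mouse 6 gave only 12 cycling and 8 other members, no test was made, and ratios are given with exact intervals for counting error only. In mouse 7, the 348 cycling members (median depth 16260.5 UMIs) held 965 CPM of Stmn2 against 1311 CPM in the 198 others (median depth 12767.5 UMIs), a ratio of 0.736 (0.705 to 0.768). Neurod1 stood at 627 against 697 CPM (ratio 0.901, 0.851 to 0.953) and Dcx at 96.2 against 139 CPM (0.690, 0.604 to 0.790). Of 28 neuroblast and neurite genes at 20 CPM or more, 24 were lower in cycling members (85.7%, against 47.7% of 6122 genes), with a median log2 ratio of -0.29 against 0.02 over all of them. In mouse 6, 17 of the 28 were lower (60.7%, against 47.6%), and 16 were lower in both mice. Insm1 and Celf4 lay on the other side, with ratios of 1.32 (1.20 to 1.45) and 1.22 (1.12 to 1.33). In mouse 6, cycling members held 759 CPM of Stmn2, 587 CPM of Neurod1 and 77.7 CPM of Dcx, and the others held 806, 806 and 227 CPM. Those 3 genes were lower in cycling members of both mice, from 88 and 71 Stmn2 UMIs in mouse 6, whereas Insm1 (190 against 216 CPM) and the gate genes Gap43 (362 against 261 CPM) and Ina (173 against 136 CPM) lay on the other side in mouse 6 than in mouse 7.

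For programs of MYC, p53 and the drug target topoisomerase, the genes called are given beside the shares over all genes tested, 12.2% higher and 14.3% lower in NB-like cells. Human MYCN stood at 1623 and 1021 CPM in P70 members and at 1424 and 725 CPM in OL-like cells, and at 266 and 167 CPM in the P43 members (5 and 4 UMIs). It served as part of the rule for both classes, which limits what its level can show. Of 26 MYC target and nucleolar genes, which serve ribosome and nucleotide synthesis, 3 rose in edgeR's test with Benjamini-Hochberg adjustment and 1 fell, with a median log2 fold change of 0.22 (-0.04 over all genes), which is near the share over all genes for those that rose. Those that rose were Nme1 (1069 and 1325 against 635 and 649 CPM), Odc1, the first enzyme of polyamine synthesis (505 and 524 against 308 and 258 CPM), and Nop58 (608 and 539 against 303 and 334 CPM), and Gnl3, a nucleolar GTPase, fell (260 and 239 against 470 and 339 CPM). DESeq2 called 1 of them higher and none lower. Endogenous Mycn was low, at 9.80 and 5.99 CPM in P70 members (2 and 50 UMIs) and at 0 and 0.821 CPM in OL-like cells (log2 fold change 3.23, adjusted p = 0.006, edgeR), and at 106 and 41.8 CPM in the P43 members from 2 UMIs and 1 UMI.

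Of 13 tested p53 pathway genes (14 listed), 3 rose and 1 fell, beside 12.2% and 14.3% of all genes. Sesn2, which restrains mTORC1, stood at 19.6 and 19.3 against 4.70 and 6.79 CPM (log2 fold change 1.64), Tigar, a phosphatase of sugar metabolism, at 39.2 and 28.0 against 8.72 and 11.3 CPM (1.53), and the nuclease gene Aen at 68.6 and 31.6 against 31.5 and 16.9 CPM (0.98). Phlda3, an inhibitor of AKT, went the other way, with no UMI in mouse 6 and 6.82 CPM in mouse 7 against 57.7 and 73.9 CPM (-3.50), and DESeq2 called this gene of the list alone. Cdkn1a, the cell cycle inhibitor p21, was at 4.90 and 4.31 CPM against 2.68 and 1.04 CPM and did not pass the test. RNA assigned to Trp53 itself was present, at 68.4 CPM in cycling and 85.6 CPM in other members of mouse 7 (391 and 226 UMIs). In mouse 6 these groups held 3 and 8 UMIs. Whether this RNA came from the deleted part of the gene was not tested. Of 10 tested topoisomerase and drug efflux genes (11 listed), 1 rose and 1 fell. Tdp2, which repairs topoisomerase-linked DNA ends, stood at 93.1 and 63.0 against 34.2 and 41.0 CPM (0.90), and the pump gene Abcc4 at 0 and 5.15 against 9.39 and 14.8 CPM (-1.60), neither called by DESeq2. Top1 stood at 574 and 523 against 463 and 447 CPM and did not pass the test (log2 fold change 0.26 ± 0.24 SE), nor did Top2a (304 and 603 against 207 and 395 CPM).

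Genes of antigen presentation by MHC class I were lower in NB-like cells, mostly on account of mouse 7. Of 9 tested genes (10 listed), 7 fell and none rose in edgeR's test with the mouse block, beside 14.3% and 12.2% of all genes (median log2 fold change -2.48), and neither DESeq2 nor the fit without the block called any of them. B2m (chr2:122147686-122153083), the shared light chain, stood at 78.4 CPM (mouse 6) and 17.2 CPM (mouse 7), against 82.5 and 100 CPM in OL-like cells. The heavy chain gene H2-K1 stood at 34.3 and 1.44 against 36.2 and 17.8 CPM, and H2-D1 at 63.7 and 14.5 against 86.6 and 41.8 CPM. In mouse 6 the values of B2m and H2-K1 in both classes were thus close, in the mouse whose members also held 172 CPM of myeloid markers, against 5.75 CPM in mouse 7. Whether that RNA contributed to the MHC class I values was not tested.

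Cells of mouse 7 that passed the same limits on neuronal, oligodendroglial and myelin genes without a single reporter UMI numbered 25. Mouse 6 had none and mice 4 and 5 had 2 each, so values were compared within mouse 7 and no test was made. Their median depth was 4600 UMIs, and 7 of the 546 members (1.28%, 95% exact interval 0.517 to 2.62%) had no reporter UMI after thinning to that depth. Members were chosen for at least 2 reporter UMIs at full depth, so this share leaves out cells whose reporter was hardly captured. It cannot show how often the reporter was missed. Whether the 25 reporter-free cells carried the transgene was not tested. Stmn2 was at 1186 CPM in these cells and at 1074 CPM in members (ratio of members to reporter-free cells 0.906, exact interval 0.772 to 1.07), Calb2 at 248 and 229 CPM (0.925, 0.653 to 1.36) and Dut at 954 and 810 CPM (0.850, 0.711 to 1.02). Neurod1 was 5.23-fold higher in members (3.22 to 9.16, 16 UMIs in 9 reporter-free cells), Sox11 3.12-fold (2.28 to 4.40) and Insm1 3.65-fold (1.92 to 7.99). Stmn2, Neurod1 and Olig1 are genes of the limits that both groups passed, at different depths (median 14489.5 UMIs in members). Their values are therefore a description. Olig1, Pdgfra and Fabp7, genes of glial precursors, were found at 124, 93.0 and 380 CPM in the reporter-free cells and at 2.87, 1.80 and 11.9 CPM in members. Only 3 of the 25 cells held Olig1, 3 held Pdgfra and 2 held Gad1 or Gad2 (116 and 101 CPM), so this group was mixed, whereas members held 0.120 CPM of Gad1 and no Gad2 UMI.

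Some genes around the transgene were high in the members. Of 30 genes within 3 Mb, 6 lay more than 2 log2 units above reporter-free cells in NB-like cells of both P70 mice (Lmcd1, Rad18, Srgap3, Thumpd3, Setd5 and Atp2b2), and 8 lay below them in both. This was 20% of the neighbours, against 1.02% of all 7835 genes that reached 30 CPM in a class, while 16 of the 30 (53.3%) lay above 0 in both mice, against 45.3% of all. Reporter-free cells here are all cells without a reporter UMI, of any type. The reporter sits in Rosa26 (Gt(ROSA)26Sor, chr6:113067428-113077333 of GRCm38, minus strand), and the neighbours were looked up after the values of some had been seen, so no test was made. Rad18, a ubiquitin ligase of DNA repair whose midpoint lies at -0.414 Mb from the locus, stood at 750 and 1389 CPM in P70 members, at 307 and 395 CPM in their OL-like cells and at 9.75 and 90.3 CPM in reporter-free cells. Thumpd3, which overlaps the locus, stood at 598 and 1023 CPM in NB-like, 442 and 405 CPM in OL-like and 27.0 and 121 CPM in reporter-free cells, and Setd5, on its other side, at 779 and 1304, 286 and 789, and 102 and 164 CPM. In the 25 reporter-free neuronal-gene cells of mouse 7, Rad18 stood at 434 CPM and was found in 17 cells. For Rad18, Thumpd3 and Setd5, both reporter classes of the P70 mice lay above reporter-free cells of the same mouse and NB-like above OL-like cells. At P43 Setd5 was lower in NB-like cells of mice 4 and 5 (372 and 418 CPM) than in OL-like cells (587 and 938 CPM). Lmcd1 and Atp2b2 were different, since OL-like cells of both mice (2.01 and 9.85 CPM, and 0 and 2.46 CPM) lay below reporter-free cells (3.21 and 21.8 CPM, and 0.111 and 7.25 CPM). For other neighbours the mice differed. Lhfpl4 was high in mouse 6 (412 CPM in NB-like and 85.9 CPM in OL-like cells) and not in mouse 7 (30.3 and 21.9 CPM). Arpc4, Brk1 and Sec13 were higher in OL-like than in NB-like cells of mouse 6 (414, 808 and 552 against 147, 211 and 113 CPM) but close in both classes of mouse 7 (98.9, 244 and 108 against 95.9, 219 and 113 CPM).

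**Figure D5:**
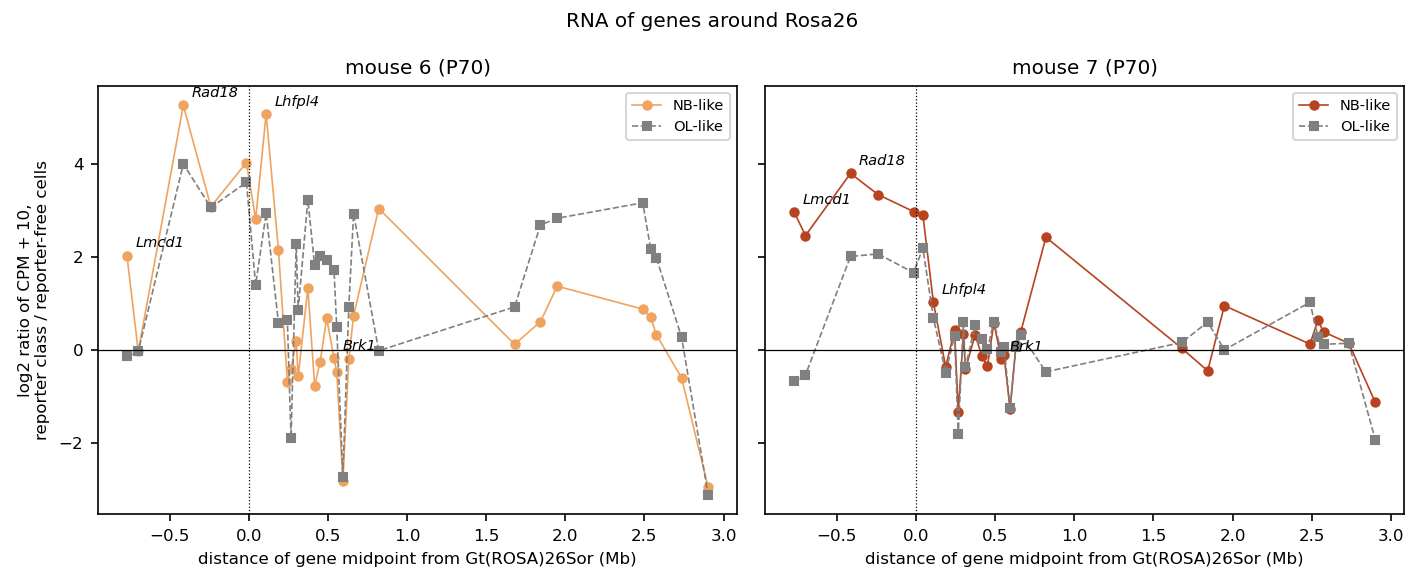
Log2 ratio of the level (CPM + 10) in NB-like (circles) and OL-like cells (squares) to that in reporter-free cells for 30 genes within 3 Mb of Rosa26, against the distance of each gene from the locus, in mice 6 and 7. In NB-like cells of both mice Lmcd1, Rad18, Srgap3, Thumpd3, Setd5 and Atp2b2 lie more than 2 log2 units above 0, and in mouse 6 most genes between 0.3 and 0.7 Mb are higher in OL-like cells.

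Some of these neighbours also varied among the members of mouse 7. With each member thinned to 2000 UMIs, the ratio of variance to mean had a median of 1.06 over 1743 genes with at least 0.2 UMIs per member. It was 2.78 for Rad18, the third highest value, 2.74 for human MYCN, 2.66 for FLUC and 2.07 for Thumpd3, and 6 of the 30 most variable genes (20%) lay within 3 Mb of Rosa26 (Rad18, Brk1, Thumpd3, Setd5, Srgap3 and Lmcd1), against 8 of the 1743 genes (0.459%). The list was led by the histone gene H1f5 (4.02) and by Tmsb4x (3.76), which encodes an actin-binding peptide. Across the 546 members of mouse 7, which are cells of 1 tumor and share its library, Pearson's r between a gene and the summed reporter at 2000 UMIs was 0.48 for Setd5, 0.34 for Rad18, 0.33 for Thumpd3 and 0.25 for Srgap3. It was 0.02 for Lmcd1, -0.06 for Atp2b2 and -0.02 for Brk1.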

How the data were processed

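Droplet-based single-cell transcriptomes of 4 tumors (10x Genomics 3′ libraries) were analysed. The authors aligned reads to mm10 extended by FLUC and human MYCN with Cell Ranger 6.0.2 and deposited a matrix of raw UMI counts for each library, not normalized. Of 21861 features, 21817 had a position in the GRCm38 annotation. The depth per library ranged from 13106786 to 40621958 UMIs. Intervals and the limit of 3 counts allowed by a 0 cover counting error only.

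The members and all gene lists were chosen with earlier results of these data known. Each mouse counted as 1 replicate. No doublet caller was run, and cells with more than 40000 UMIs or with at least 2 gate genes of the oligodendroglial lineage were outside the limits. Levels are CPM of UMIs summed per class and mouse. Sums of mice with at least 10 cells in both classes were tested with edgeR 4.0.16 in R 4.3.3 (TMM, filterByExpr, quasi-likelihood test, mouse as a block, Benjamini-Hochberg adjustment, limit 0.05). This left mice 6 and 7, with 1 residual degree of freedom and a common biological coefficient of variation of 18.0%. On simulated data with the depths of this comparison and 11135 genes, 25% of genes changed 2-fold and 86% of those changed 4-fold were recovered, with 2 false calls. The simulation gave every gene the same dispersion and drew both classes from OL-like levels of the same mouse. It therefore cannot show how many calls in the measured data are false. Exact tests over mice used scipy 1.17.1 in Python 3.11.15.

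Named genes are all genes of the lists, and the 10 largest rises and falls outside them with adjusted p under 0.05, at least 50 CPM in the higher class and no overlap between classes. Rosa26 neighbours, variable genes, the genes looked up per cell for lineage, Ebf1, Mycn and Fabp7 in reporter-free cells were chosen after their values were seen. Some genes are not reported here. The planned edgeR fits against reporter-free cells, between cycling and other members and between ages could not be run, since too few mice had 10 cells in both groups. Alternatives were DESeq2 1.42.0, upper quartile factors, no filter on low counts, no mouse block, other limits of the rule, thinning, the same number of cells per class and omission of each mouse.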

Additional observations from a re-analysis of the deposited data

Results flagged for a closer look

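In Dlx1 and Tshz1, the measured values of both P43 mice lay above and those of both P70 mice under their OL-like cells, which drew attention to them. The difference between the ages was not tested, and each P43 value comes from 2 NB-like cells. Dlx1 in NB-like cells was at 266 CPM in mouse 4 and 502 CPM in mouse 5, above OL-like cells of the same mice (0.930 and 16.0 CPM). At P70 it was at 0 and 0.120 CPM in mice 6 and 7, beside 11.4 and 0.373 CPM in OL-like cells. These differences at P70 are within counting error, since the 95% exact Poisson intervals reach 18.1 CPM in mouse 6 and 0.667 CPM in mouse 7. Tshz1, a zinc finger factor of olfactory bulb interneurons, was at 798 and 293 CPM in the P43 members, above OL-like cells (69.1 and 47.1 CPM). At P70 it was at 63.7 and 44.8 CPM, beside 67.1 and 61.0 CPM in the OL-like class. In edgeR's test over the P70 mice it was not called (log2 fold change -0.32 ± 0.30 SE).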

How the results depend on the processing

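The difference in the NB-like share of reporter cells between ages kept its direction under every alternative run, between 10.6 and 12.5 points with other limits of the rule or at equal depth, and between 4.20 and 19.1 points when each mouse was left out in turn. The higher cycling share of NB-like cells kept its direction as well, with 18.3 points for at least 3 of 8 genes, 34.0 points without thinning, and 21.3 to 26.7 points when mouse 6 or mouse 7 was left out. The count of genes that differed from OL-like cells depended on the model. Genes higher in NB-like cells numbered 1376, against 704 with no replicate block for the mouse, 618 with DESeq2, 877 in cells not called cycling and 591 with all 4 mice, and genes lower numbered 1615, against 854 with no replicate block and 682 with DESeq2. The last of these settings for the higher genes, with all 4 mice, and the one without cycling cells, with at least 5 cells per class, were chosen after seeing the data. Mki67 turned from a log2 fold change of 0.64 to -0.037 when cells were thinned to 2000 UMIs before the limits were applied. Of 1224 values of named genes over 14 alternatives, 1108 were counted as unchanged, 101 were no longer called and 14 were newly called. A gene not called in the main fit counted as unchanged also when its sign turned. Kept direction can therefore be read only for genes called in the main fit. The cause of these changes was not tested. Leaving out a mouse from the edgeR fit was not run, since 1 mouse leaves no residual degree of freedom, nor were the alternatives of the 3 fits that could not be made and the fit of cells not called cycling with at least 10 cells. The P43 members, with 160 and 126 CPM as the level that a count of 0 allows, set no useful limit for most genes.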
